A study of Mus musculus with 6 samples.

Results

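The MYC and MAX network is a family of transcription factors that bind DNA as dimers around one shared partner, MAX. The genes described here were the rows of the deposited gene count table named Myc, Mycn, Mycl, Max, Mxd1, Mxd3, Mxd4, Mxi1, Mnt and Mga, which are 10 of 54532 genes. The cells were Glu-tag, a mouse enteroendocrine line, in which the study examined neuroendocrine tumours of the small intestine. The study compared 3 libraries of cells with a control hairpin (sh-control, genotype WT in the labels) with 3 libraries of cells with a stable hairpin against Irs2 (sh-IRS2, genotype IRS2 Knockdown), to see which transcripts change when this insulin receptor substrate is silenced. The groups are called control and shIRS2 here, and each library keeps the number 1, 2 or 3 that ends its title. No label gives a time, a drug, a number of clones or what a number stands for, and the series text speaks of biological triplicates without saying whether these were separate cultures. The p-values therefore cover the scatter of these 6 libraries, part of which may be technical.

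In this network, MYC, MYCN and MYCL pair with MAX at E-box sequences and raise transcription of genes for growth, ribosome production and nucleotide synthesis. MXD1, MXD3, MXD4 and MXI1 (also known as MXD2) compete for MAX and recruit the SIN3 and histone deacetylase corepressors, as does MNT, which is present in most cell types. MGA pairs with MAX inside a Polycomb complex best known for silencing germline genes. In proliferating cells MYC is usually high, and several MXD genes rise when cells leave the cycle and differentiate.

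The labels and the RNA did not match at 2 points that bear on every comparison below. Irs2 was at 31.6, 22.7 and 34.3 CPM (a count scaled to a library total of 1000000) in control libraries 1 to 3 and at 31.4, 28.6 and 38.7 CPM in shIRS2 libraries 1 to 3, a log2 fold change of 0.17 (SE 0.16, 95% interval -0.20 to 0.54; edgeR adjusted p 1.00). The libraries labelled shIRS2 thus did not have less Irs2 RNA by these counts, and "shIRS2" below means that label only. Of 13 markers of enteroendocrine cells, Gcg, Pcsk1, Chga, Neurod1 and Pyy had 0 counts in all 6 libraries, and only Pax6 and Foxa2 had a mean above 1 CPM. Among 8 fibroblast markers, 5 had a mean above 1 CPM, with Col3a1 at 534 to 870 CPM, Col1a1 at no more than 0.511 CPM and Thy1 at 0 counts, while among 6 epithelial markers Krt8 stood at 376 to 415 CPM, Cdx2 had 0 counts and Epcam 1. Summed immune markers reached at most 5.48 CPM and summed endothelial markers 2.02 CPM. The libraries held 14991019 to 19790073 counts, and 13472 genes had enough counts to be tested, 8 of the 10 members among them.

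Myc was the dominant member, and the levels per length spanned a wide range (FPKM, the library-scaled level divided by gene length). Over the 6 libraries the mean was 147 FPKM for Myc and 42.1 FPKM for Max. Mga had 13.95 FPKM, Mxi1 11.8, Mnt 8.78 and Mxd3 8.28. Lower still were Mxd4 at 2.76 FPKM and Mxd1 at 0.855 FPKM. Myc did not overlap Max over the 6 libraries, nor Max Mga. Neighbours from Mga down to Mxd3 overlapped in their ranges, which ran from 12.7 to 15.5 FPKM for Mga, 9.61 to 14.6 for Mxi1, 7.20 to 9.95 for Mnt and 5.99 to 9.63 for Mxd3. The ranges of Mxd3, Mxd4 and Mxd1 did not overlap one another.

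**Figure D1:**
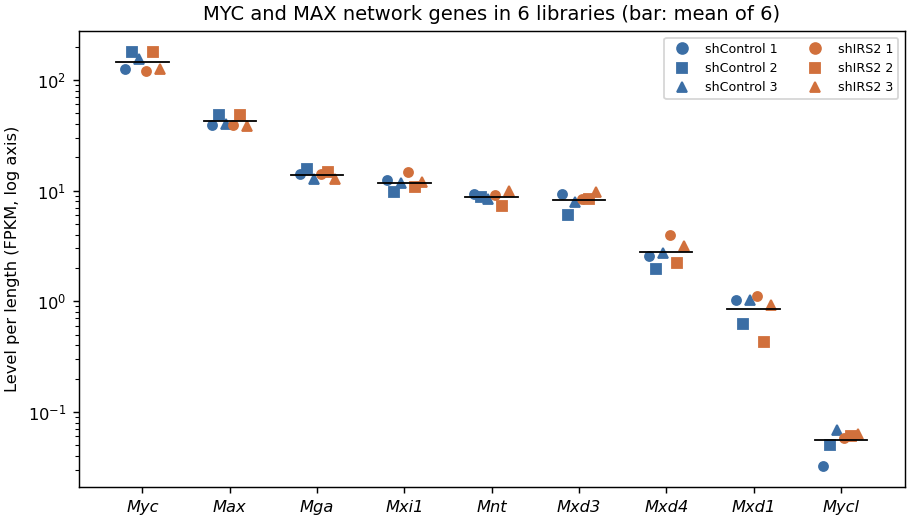
Level per length of each detected member (FPKM on a log axis) in the 6 libraries; colour marks the hairpin group, shape the number in the title, and the bar the mean of 6. Myc sits highest at 119.5 to 179 FPKM, Mycl lowest at 0.0323 to 0.0693 FPKM, and squares (number 2) lie at the top for Myc and Max and at the bottom for Mxd1, Mxd4 and Mxi1.

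The other activators were almost absent. Mycn, the family member known from neural and neuroendocrine tumours (ENSMUSG00000037169, chromosome 12 from 12936093 to 12941914, mm10), had 0 counts in all 6 libraries, which allows a level of up to 0.0295 CPM over their summed total. Mycl, first found amplified in small cell lung cancer (ENSMUSG00000028654, chromosome 4 from 122995652 to 123002485), had 2, 4 and 5 counts in control libraries 1 to 3 and 4, 4 and 4 counts in the shIRS2 libraries. Its 23 counts correspond to 0.226 CPM, with an exact Poisson 95% interval of 0.144 to 0.340 CPM that covers counting error only. Neither gene could be tested. Myc supplied between 99.95% and 99.97% of the summed FPKM of Myc, Mycn and Mycl in each library.

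No member passed the test between the shIRS2 and control libraries. The edgeR test called 0 of the 8 tested members and 0 of 13472 genes at an adjusted p under 0.05, a background of 0%, and at an unadjusted p under 0.05 it had 0 members and 262 genes. DESeq2 called 0 members and 2 genes, with 192 genes at an unadjusted p under 0.05. The groups overlapped in CPM for all 8 members, while 6.52% of the tested genes had groups that did not overlap. The differences between numbers described below count as error in this fit. With the replicate block, edgeR again called 0 members, against a background of 0.00742%, and 1 member, Mxd4, had an unadjusted p under 0.05, as did 1234 of all genes (9.16%).

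Myc (ENSMUSG00000022346, chromosome 15 from 61985391 to 61990374, plus strand) encodes the activating partner of MAX. It stood at 347, 478 and 419 CPM in control libraries 1 to 3 and at 327, 479 and 344 CPM in shIRS2 libraries 1 to 3. The group means were 415 ± 66.0 CPM (SD, n = 3) and 383 ± 83.1 CPM (SD, n = 3), and the libraries numbered 2 were the highest of each group and within 1 CPM of each other. On the log2 scale shIRS2 minus control was -0.10 (SE 0.17, 95% interval -0.49 to 0.28; edgeR adjusted p 1.00). Leaving out control library 2 or shIRS2 library 1 turned the sign, to 0.025 and 0.0014.

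Max (ENSMUSG00000059436, chromosome 12 from 76937269 to 76962201, minus strand) encodes the common partner. Its levels were 144, 173 and 145 CPM in control libraries 1 to 3 and 141, 170 and 139 CPM in shIRS2 libraries 1 to 3. The group means were 154 ± 16.3 and 149.9 ± 17.0 CPM (SD, n = 3 each), and the edgeR estimate on the log2 scale was -0.03 (SE 0.12, 95% interval -0.29 to 0.24; adjusted p 1.00). As for Myc, both libraries numbered 2 lay above the other 4. A provisional transcript model, Gm47218, lies inside Max on the same strand and held 255 counts, against 15512 for Max.

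The E-box core CACGTG, the preferred site of MYC and MAX dimers, was searched in RefSeq promoter windows of 300 bases (250 before and 50 after the gene start, GRCm38.p6). The core reads the same on both strands. Windows were at hand for 9 of the 10 members, 11 windows in all, with Myc the member without one. It was present in 3 of them, those of Max, Mxd4 and Mnt, and in 7.15% of all 32851 windows. Counted by gene, 3 of 9 members held it, beside 11.9% of the 9551 tested genes with a window, which are not all of the 13472 tested. The 9 members include Mycn and Mycl, which were not tested and lacked the core, so these sets are unlike. The sequences are shown because these are members of the network whose own promoters carry its binding core, here in capitals. They run 5′ to 3′ on the strand of the gene. Counted from the RefSeq start, the core begins 3 bases before it and spans it for Max, 123 bases before it for Mnt and 219 bases before it for Mxd4. The RefSeq start of Max (76962248) lies 47 bases upstream of the start given in the count table, so the core (76962246 to 76962251) is outside the gene as counted. For Mxd4 and Mnt the starts differ by 10 and 4 bases.
Max, chr12:76962224-76962311, minus strand: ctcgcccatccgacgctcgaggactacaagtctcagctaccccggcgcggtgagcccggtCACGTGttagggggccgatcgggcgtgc
Mxd4, chr5:34187884-34187960, minus strand: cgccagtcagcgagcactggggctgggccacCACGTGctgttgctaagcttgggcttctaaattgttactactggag
Mnt, chr11:74830741-74830846, plus strand: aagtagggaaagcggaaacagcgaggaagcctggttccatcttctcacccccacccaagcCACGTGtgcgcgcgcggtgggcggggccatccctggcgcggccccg
The match is a description of these letters and no measure of binding. By replicate number, as given below, Max was higher in number 2, Mxd4 lower, and Mnt did not pass the test. Whether the core bears on these levels was not tested.

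Mxd4 (ENSMUSG00000037235, chromosome 5 from 34173883 to 34187720, minus strand), a repressor linked to differentiation, had an estimate of 0.38 between the groups, the largest of the 8 members in the fit of all 6 libraries. It stood at 22.3, 16.3 and 23.1 CPM in control libraries 1 to 3 and at 34.1, 18.4 and 27.1 CPM in shIRS2 libraries 1 to 3. The means were 20.6 ± 3.72 and 26.5 ± 7.87 CPM (SD, n = 3 each), and the groups overlapped because shIRS2 library 2 lay below control libraries 1 and 3. This log2 fold change had an SE of 0.21 and a 95% interval of -0.10 to 0.86 (edgeR adjusted p 1.00). It was 0.16 without shIRS2 library 1, 0.24 without control library 2 and 0.58 without shIRS2 library 2. Within the pairs that share a number it was higher in all 3, by log2 ratios of 0.61, 0.17 and 0.23. The fit with the replicate block gave 0.36 (SE 0.11), with an edgeR adjusted p of 0.366.

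The remaining repressors gave estimates between -0.12 and 0.19. Mxd1 (ENSMUSG00000001156, chromosome 6 from 86647042 to 86669161), the founding MAX dimerization repressor, stood at 7.47, 4.40 and 7.28 CPM in control libraries 1 to 3 and at 7.89, 2.98 and 6.52 CPM in shIRS2 libraries 1 to 3. It rested on 49 to 134 counts a library, and its log2 fold change was -0.12 (SE 0.33), the least precise of the 8. Leaving out shIRS2 library 2 turned it to 0.19.

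Mxi1 (ENSMUSG00000025025, chromosome 19 from 53310506 to 53375810) stood at 71.4, 53.6 and 66.2 CPM in control libraries 1 to 3 and at 82.8, 59.2 and 67.1 CPM in shIRS2 libraries 1 to 3. In both groups library 2 was the lowest. Its log2 fold change was 0.14 (SE 0.14; 0.0022 without shIRS2 library 1 and 0.24 without shIRS2 library 2), from means of 63.7 ± 9.14 and 69.7 ± 12.0 CPM (SD, n = 3 each).

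Mxd3 (ENSMUSG00000021485, chromosome 13 from 55325168 to 55329823), a member of the repressor family found in dividing cells, stood at 22.7, 14.1 and 18.8 CPM in control libraries 1 to 3 and at 20.1, 19.5 and 22.9 CPM in shIRS2 libraries 1 to 3. Control library 2 was the lowest, and shIRS2 library 2 was not set apart from its group. The log2 fold change was 0.19 (SE 0.17), which became 0.030 without control library 2 and 0.34 without control library 1. Mxd3 shares 105 bases at its end with Prelid1, which lies on the opposite strand at 506 to 611 CPM, and whether the counting used strand is not given in the sources used here.

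Mnt (ENSMUSG00000000282, chromosome 11 from 74830920 to 74845725) stood at 44.0, 40.1 and 38.9 CPM in control libraries 1 to 3 and at 42.6, 32.8 and 46.3 CPM in shIRS2 libraries 1 to 3. Its estimate was -0.00 (SE 0.13, 95% interval -0.29 to 0.29), with a sign that turned without shIRS2 library 2 (0.12) or control library 1 (0.036). Mga (ENSMUSG00000033943, chromosome 2 from 119897228 to 119969581) stood at 219, 236 and 197 CPM in control libraries 1 to 3 and at 219, 220.3 and 196 CPM in shIRS2 libraries 1 to 3. For Mga the estimate was -0.03 (SE 0.10, 95% interval -0.25 to 0.19), and it turned to 0.0497 without control library 2 and 0.031 without shIRS2 library 3. Over all 8 tested members the 95% intervals ended at -0.86 (Mxd1) on the lower and at 0.86 (Mxd4) on the upper side, and edgeR gave each an adjusted p of 1.00.

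By the number in the title, the members did differ. An F-test over the 3 numbers, in a fit with number and group, called Myc, Max, Mxd1, Mxd4 and Mxi1, which are 5 of the 8 tested members, where it called 2638 of 13472 genes, a background of 19.6%. Both libraries numbered 2 lay above the other 4 for Myc, Max and Mga, against a background of 16.7%, and below them for Mxd1, Mxd4 and Mxi1, against 23.4%. Among the 5 called members, Myc and Max were thus higher and the repressors Mxd1, Mxd4 and Mxi1 lower in the libraries numbered 2. For Mga, which was not called, the margin was narrow, with shIRS2 library 2 at 220.3 CPM and control library 1 at 219.3 CPM. The libraries are bulk RNA, in which fewer cells of a type and less RNA per cell cannot be told apart. Summed fibroblast markers were at 629 and 850 CPM in the libraries numbered 2 and at 654 to 989 CPM in the other 4. Col3a1 made up most of this sum. Pdgfra was lower in the libraries numbered 2 (35.0 and 46.5 against 61.1 to 72.1 CPM). Pdgfrb (51.8 and 46.1 against 35.0 to 43.4 CPM) and Lum (3.44 and 3.23 against 1.93 to 2.71 CPM) were higher there. Summed enteroendocrine markers were at 26.7 and 24.5 against 26.7 to 30.9 CPM, mostly from Pax6 (21.5 and 19.8 against 23.2 to 27.3 CPM). Foxa2 overlapped, at 4.95 and 4.44 against 3.06 to 5.30 CPM. Irs2 also differed by number (edgeR adjusted p 0.0159 in the F-test) and was lowest in the libraries numbered 2. The part of these in the result was not tested.

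**Figure D2:**
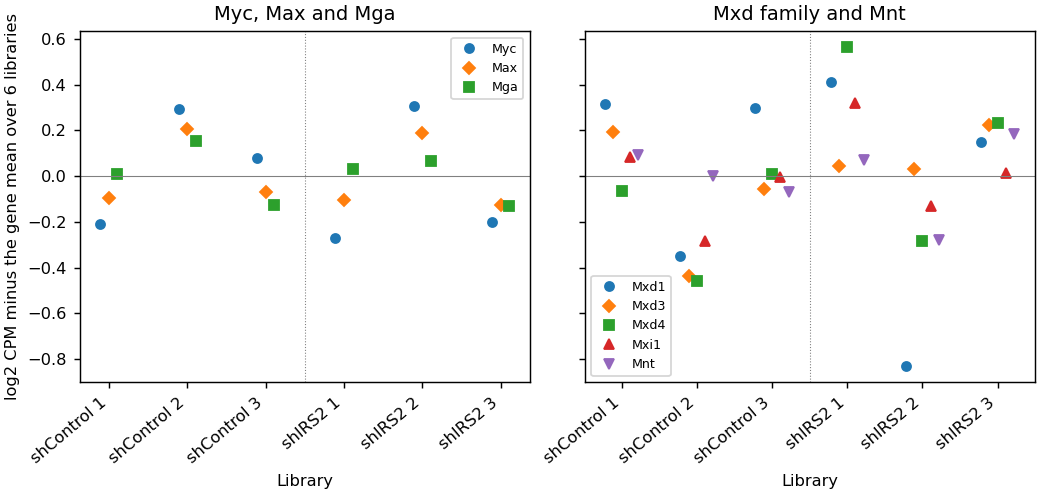
log2 CPM of each tested member minus its mean over the 6 libraries (vertical axis) in each library (horizontal axis), with Myc, Max and Mga on the left and the Mxd family and Mnt on the right; the dotted line parts the hairpin groups. In both groups library 2 is highest for Myc, Max and Mga (narrowly for Mga in the shIRS2 group) and lowest for Mxd1, Mxd4 and Mxi1.

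Myc was higher in number 2 than in number 1 by 0.54 on the log2 scale (SE 0.08, 95% interval 0.37 to 0.71; edgeR adjusted p 0.000526). From number 2 to number 3 it fell by 0.36 (SE 0.08; edgeR adjusted p 0.00549). Number 3 against number 1 gave 0.18 (SE 0.08; edgeR adjusted p 0.436). Taken within the groups, library 2 was 1.25 times the mean of libraries 1 and 3 among the controls and 1.43 times among the shIRS2 libraries. Myc had the smallest p of the members in the F-test, with an edgeR adjusted p of 0.000828, and it passed the test in each fit that left out 1 library (0.0469 at most, without shIRS2 library 2). The call against number 3 was lost without shIRS2 library 2 (edgeR adjusted p 0.193) or shIRS2 library 3 (0.104).

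Max was higher in number 2 than in number 1 by 0.30 (SE 0.07, 95% interval 0.14 to 0.45; edgeR adjusted p 0.0131). Number 3 against number 2 gave -0.29 (SE 0.07; edgeR adjusted p 0.0106), and numbers 1 and 3 differed by 0.00 (SE 0.07, 95% interval -0.15 to 0.16). The ratio of library 2 to the mean of the other libraries of its group was 1.20 in the controls and 1.21 in the shIRS2 libraries. With only 1 library numbered 2 left, the F-test no longer called Max, at an edgeR adjusted p of 0.298 without control library 2 and 0.280 without shIRS2 library 2, while its difference from number 1 stayed at 0.31 and 0.29. Without shIRS2 library 3 the edgeR adjusted p of number 3 against number 2 was 0.0520.

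Among the repressors, Mxd1 had the steepest difference, lower in number 2 than in number 1 by a log2 value of -1.03 (SE 0.21, 95% interval -1.47 to -0.58; edgeR adjusted p 0.00479). From number 2 to number 3 it rose by 0.87 (SE 0.21; edgeR adjusted p 0.00953). Library 2 was at 0.596 of the mean of libraries 1 and 3 in the controls and at 0.414 in the shIRS2 libraries. Without shIRS2 library 2 its F-test adjusted p (edgeR) was 0.185, and the difference from number 1 was -0.79.

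Mxd4 was lower in number 2 than in number 1 by a log2 value of -0.65 (SE 0.13; edgeR adjusted p 0.00447) and rose from number 2 to number 3 by 0.50 (SE 0.13; edgeR adjusted p 0.0143). The ratio of library 2 to the mean of the others was 0.719 in the controls and 0.601 in the shIRS2 libraries. Without shIRS2 library 2 its F-test adjusted p (edgeR) was 0.195. The step from number 1 was also lost without shIRS2 library 1 (edgeR adjusted p 0.0705) and the step to number 3 without control library 3 (0.0733). In a fit with the number alone and no group term its F-test adjusted p was 0.0588.

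Mxi1 was lower in number 2 than in number 1 by a log2 value of -0.42 (SE 0.08; edgeR adjusted p 0.00423). Number 3 against number 2 gave 0.22 (SE 0.08), which missed the threshold at an edgeR adjusted p of 0.0788 and passed it without control library 1 (0.0290), shIRS2 library 1 (0.0387) or shIRS2 library 3 (0.0488). Library 2 was at 0.779 of the mean of the others in the controls and at 0.790 in the shIRS2 libraries, the closest match between the groups among the 3 repressors called. Its F-test adjusted p (edgeR) was 0.131 without control library 2 and 0.127 without shIRS2 library 2.

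Mxd3, Mnt and Mga were not called by the F-test, at edgeR adjusted p-values of 0.210, 0.322 and 0.0632. Number 2 against number 1 gave -0.33 (SE 0.15) for Mxd3 and -0.21 (SE 0.11) for Mnt, and 0.09 (SE 0.07) for Mga. Single libraries left out moved Mxd3 to -0.058 (without control library 1) or -0.60 (without shIRS2 library 1) and Mnt to -0.022 (without shIRS2 library 2) or -0.42 (without control library 2). Mga was lower in number 3 than in number 2, at -0.24 (SE 0.07; edgeR adjusted p 0.0260), a call that was lost without control library 2 (0.468), control library 3 (0.134), shIRS2 library 2 (0.144) or shIRS2 library 3 (0.0652). Leaving out a library outside number 2 let some of these genes pass the F-test. Mxd3 passed without shIRS2 library 1 (edgeR adjusted p 0.0206), Mnt without control library 3 (0.0375) and Mga without control library 1 or shIRS2 library 1 (0.0163 each). Counting members by pair and direction, 2 were higher and 3 lower in number 2 than in number 1, against backgrounds of 7.85% and 7.42%. From number 2 to number 3, 2 were higher and 3 lower, against 11.2% and 10.2%. Between numbers 1 and 3, 0 members were called in either direction, against 0.104% higher and 0.134% lower.

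**Figure D3:**
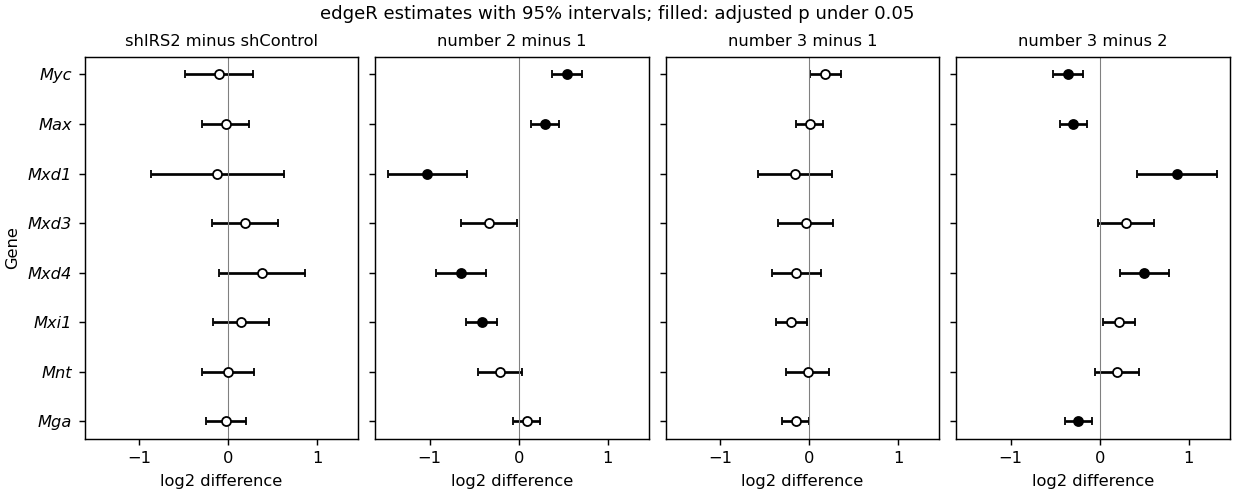
edgeR log2 differences of the 8 tested members (horizontal axis) with 95% intervals for shIRS2 minus control and for the 3 pairs of numbers; filled points have an adjusted p under 0.05. No point is filled for the hairpin groups or for number 3 minus 1, while 5 are filled in each panel that involves number 2.

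Summed by role, the activator sum was highest in the libraries where the repressor sum was lowest. The summed FPKM of Myc, Mycn and Mycl was 125, 177 and 153 in control libraries 1 to 3 and 119.6, 179 and 126 in shIRS2 libraries 1 to 3. For Mxd1, Mxd3, Mxd4, Mxi1 and Mnt together it was 34.7, 26.9 and 31.6 in the controls and 37.3, 28.9 and 35.5 in the shIRS2 libraries. The ratio of the sums was 3.59, 6.59 and 4.84 in the controls and 3.21, 6.19 and 3.54 in the shIRS2 libraries, so that the libraries numbered 2 had the highest ratio in each group and control library 3 stood between. Myc over Max moved less, from 3.07 in shIRS2 library 1 to 3.82 in control library 3. These ratios describe RNA and were given no test, since they follow from the members' own levels.

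**Figure D4:**
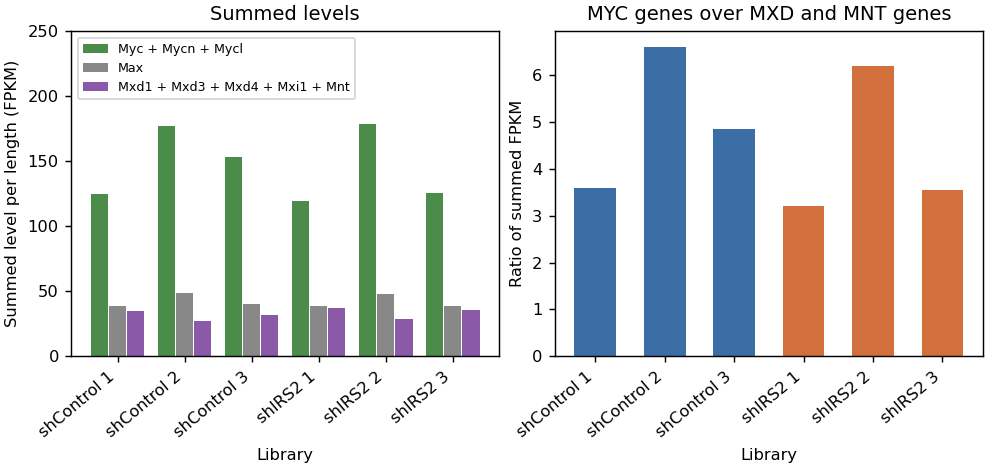
Left, summed FPKM of the MYC genes, Max, and the MXD and MNT genes in each library; right, the ratio of the MYC sum to the MXD and MNT sum, coloured by hairpin group. The ratio is 6.59 and 6.19 in the libraries numbered 2 and 3.21 to 4.84 in the other 4.

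Genes that MYC is known to induce also differed by number, most of them higher in number 2. All 36 listed genes were tested, and 26 passed the F-test over the numbers, beside the 19.6% of all genes. Between numbers 2 and 1, 24 were higher and 0 lower, beside 7.85% and 7.42% of all genes. The median log2 difference of the 36 was 0.36, where the median of all genes was -0.01. From number 2 to number 3, 24 were lower and 2 higher, beside 10.2% and 11.2% of all genes, with a median of -0.34 where all genes had 0.00. Many of them are genes of ribosome production, which earlier results of these data had shown to differ by number, so the list is no independent evidence. Polr1b, a subunit of RNA polymerase I, stood at 102, 175 and 105 CPM in control libraries 1 to 3 and at 101, 163 and 104 CPM in shIRS2 libraries 1 to 3. Ncl, which encodes nucleolin, stood at 1849, 2980 and 1730 CPM in the controls and at 1855, 2524 and 1616 CPM in the shIRS2 libraries. In both genes the libraries numbered 2 lay above the other 4, with F-test adjusted p-values (edgeR) of 2.17e-05 for Polr1b and 9.94e-05 for Ncl. Tfrc, the transferrin receptor gene, was higher in number 2 than in number 1 by 0.71 (SE 0.07) and Wdr43, a factor of small ribosomal subunit assembly, by 0.66 (SE 0.07). The 2 genes of the list that were higher in number 3 than in number 2, named after their values were seen, were Slc7a5, an amino acid transporter gene, at 0.42 (SE 0.08), and Shmt2, a mitochondrial enzyme of folate metabolism, at 0.46 (SE 0.08).

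Among genes that MYC is known to repress, Cdkn1a, Ndrg1, Cdkn1b and Ndrg2 were lower in number 2 and Thbs1 was higher. Of 8 listed genes 6 were tested, 5 passed the F-test (19.6% of all genes did), and in number 2 against number 1 there were 4 lower and 1 higher, beside 7.42% and 7.85% of all genes. The median log2 difference of the 6 was -0.82, where all genes had -0.01. This list was also chosen with earlier results of these data known, so it is no independent evidence either. Cdkn1a, the gene of the cell cycle inhibitor p21, stood at 58.1, 20.7 and 44.4 CPM in control libraries 1 to 3 and at 68.7, 25.1 and 55.8 CPM in shIRS2 libraries 1 to 3. Its difference of number 2 from number 1 was -1.44 (SE 0.09; edgeR adjusted p 5.68e-07). Ndrg1, a stress-response gene named for its repression by N-myc, had -1.28 (SE 0.10), and Cdkn1b, the gene of p27, -0.73 (SE 0.11). Thbs1, the gene of the angiogenesis inhibitor thrombospondin, was instead higher in number 2, by 1.24 (SE 0.19; edgeR adjusted p 0.000670), at 14.7 and 17.3 CPM in the libraries numbered 2 and 5.00 to 8.95 CPM in the others. Cdkn2b had 0 counts in all 6 libraries and Cdkn1c 2 counts in all. Between the hairpin groups the test called 0 genes of either target list, with medians of -0.05 for the induced and 0.26 for the repressed genes, where all genes had -0.00.

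**Figure D5:**
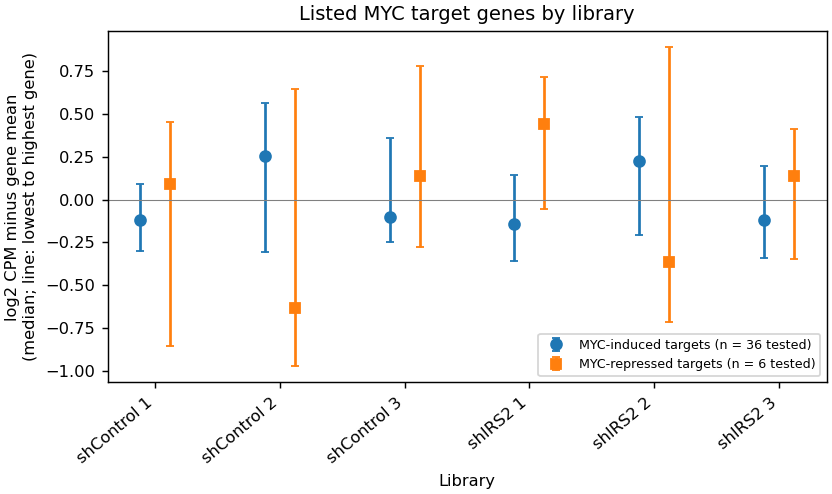
Median log2 CPM minus the gene mean (vertical axis) over the listed MYC-induced and MYC-repressed genes in each library, with lines from the lowest to the highest gene. The median of the induced genes is 0.25 and 0.23 in control and shIRS2 library 2 and -0.14 to -0.10 in the other 4; that of the repressed genes is -0.64 and -0.36 in the libraries numbered 2 and 0.09 to 0.44 in the others.

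Genes for partners of the network proteins passed the test by number about as often as all genes, at 8 of 45 over 5 lists (17.8%, beside 19.6%). Of 13 MYC cofactors 4 passed the F-test, with 3 higher in number 2 than in number 1 (7.85% of all genes were) and a median difference of 0.02. Hcfc1, a chromatin cofactor, was at 0.26 (SE 0.07), Wdr5, a subunit of histone methyltransferases, at 0.27 (SE 0.08), and Ruvbl1, a helicase of chromatin complexes, at 0.28 (SE 0.08). Cdk9, the elongation kinase, was instead higher in number 3 than in number 2, by 0.30 (SE 0.08). Among 10 genes that control MYC protein stability 1 passed, Skp2, a ubiquitin ligase subunit, at 0.24 (SE 0.08) for number 2 against number 1. In number 3 against number 2 the pairwise test called 2 of these 10 genes higher and 2 lower, beside 11.2% and 10.2% of all genes. Gsk3a (0.24) and Gsk3b (0.23), kinases that mark MYC for degradation, were higher, and Skp2 (-0.40) and Fbxw7 (-0.32), a ligase subunit that recognises that mark, were lower (edgeR, adjusted p 0.0383, 0.0432, 0.00231 and 0.0376). Sap30, a SIN3 complex subunit, was the only 1 of 10 corepressor genes to pass, lower in number 2 at -0.51 (SE 0.10). Of 9 subunits of the MGA complex 1 passed, Pcgf6, which defines it, lower in number 3 than in number 2 at -0.36 (SE 0.09). In the related MLX branch, 1 of 3 genes passed, Mlxipl, the glucose-sensing factor, at -0.95 (SE 0.25) for number 2 against number 1. Mlxipl was low, at 2.37 to 4.87 CPM, and control library 3 (2.94 CPM) lay near the libraries numbered 2 (2.43 and 2.37 CPM). Between the hairpin groups 0 of the partner genes were called. The 12 germline genes that MGA, MAX and E2F6 are known to silence were too low to test, with 4 at 0 counts in all libraries and the highest, Taf7l, at no more than 0.734 CPM.

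Among 9039 other genes whose mean CPM was 10 or more, Ppan, Lamb1 and Trub1 followed Myc most closely, measured as the root mean square difference of log2 CPM after each gene was centred on its mean over the 6 libraries. Ppan, a ribosome assembly factor that is also on the list of induced genes, differed by 0.0516, Lamb1, a laminin chain gene, by 0.0587 and Trub1, a pseudouridine synthase gene, by 0.0601. Ppan stood at 86.3, 124 and 97.3 CPM in control libraries 1 to 3 and at 80.6, 114 and 85.1 CPM in shIRS2 libraries 1 to 3. The libraries numbered 2 were the highest of each group and control library 3 came next, as for Myc. This shared order follows from picking Ppan by its likeness to Myc.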

How the data were processed

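Poly(A)-selected RNA of 6 libraries of Glu-tag cells was sequenced as strand-specific paired ends, per the labels' protocols. The submitters' processing notes name the build mm10. Which aligner and counter were used, and whether reads were counted by strand, is not given in the sources used here. The authors deposited whole-number read counts per gene for 54532 genes, and a second table of FPKM values. Within each library the deposited FPKM equal the count over the listed gene length and a total of 0.985 to 1.02 times the summed counts. Columns beginning NC were read as sh-control and those beginning S as sh-IRS2, by name alone.

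The counts went into edgeR 4.0.16 under R 4.3.3 (filterByExpr by group, TMM scaling, robust quasi-likelihood tests). This left 13472 genes with 99.9% of the counts. The groups were compared with the group as the only term. The numbers were compared in a fit with number and group, by an F-test and by all 3 pairs. Benjamini-Hochberg adjustment ran over the 13472 genes, with a threshold of 0.05, and pairwise tests were two-sided. CPM are counts over the library total. The scripts were tested on simulated counts. Alternatives used DESeq2 1.42.0, its size factors, no filter, limma 3.58.1 on log2(FPKM + 1) or log2(FPKM + 0.1), the number as a block and each library left out.

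Deviations from the group mean correlated between the libraries sharing a number, at 0.167, 0.576 and 0.260 for numbers 1, 2 and 3. Numbers 1 and 3 also correlated with each other, at 0.189 (control library 1 with shIRS2 library 3) and 0.199 (control library 3 with shIRS2 library 1). Both values were above the 0.167 of number 1, so a match by number showed mainly for number 2. Deviations cancel within a group, so these values do not by themselves separate number 1 from number 3. Any pairing rests on the data, since no label states it. The main group test left the numbers out, and an alternative fit took them as a block.

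The members and the gene lists were chosen with earlier results of these data known. All members and Irs2 were to be named, with up to 4 genes of each list by the smallest p over the numbers, 2 by group, and the 3 genes most like Myc. Lists were not tested as sets.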

Additional observations from a re-analysis of the deposited data

How the results depend on the processing

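Between the hairpin groups, 0 members were called under every alternative. Of all genes, 1 was called with the replicate block, 6 without a filter, 2 by DESeq2 and 0 in each fit that left out 1 library. The block changed no call of a member. Without a filter Mnt turned to 0.0010, and with both libraries numbered 2 left out (chosen after seeing the data) Mnt turned to 0.12 and Mga to 0.010. Leaving out single libraries gave ranges of -0.31 to 0.025 for Myc, -0.14 to 0.076 for Max, -0.41 to 0.19 for Mxd1, 0.030 to 0.34 for Mxd3, 0.16 to 0.58 for Mxd4, 0.0022 to 0.24 for Mxi1, -0.10 to 0.12 for Mnt and -0.10 to 0.0497 for Mga.

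Over the numbers, the F-test called 1641 genes in DESeq2 and 803 and 864 in limma on log2(FPKM + 1) and log2(FPKM + 0.1), against 2638. Limma called 1 member, Myc, with either pseudocount (adjusted p 0.0485 and 0.0444), and the cause was not tested. DESeq2, its size factors in edgeR and no filter each called 5 members, and the number alone 4. Single libraries left out gave 798 to 3774 genes and 1 to 7 members, with 798 genes and 3 members without control library 2 and 973 genes and 1 member without shIRS2 library 2. These 2 fits hold 1 library numbered 2, which is assumed to vary like the others.

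For number 2 against 1, DESeq2 called 1205 genes and limma 755 and 786, against 2056, with 595 to 2851 over single libraries left out. For number 3 against 2 they called 1744, 1501 and 1537, against 2884, with 834 to 3923. For number 3 against 1, 0 genes were called with the number alone and by limma with either pseudocount, 52 by DESeq2 and 204 without a filter, against 32, with 64 to 264. In that pair single libraries left out turned Max (-0.018 to 0.027), Mxd1 (-0.37 to 0.057), Mxd3 (-0.30 to 0.23), Mxd4 (-0.35 to 0.083) and Mnt (-0.23 to 0.18). For number 3 against 2, Mnt ran from -0.0071 to 0.40 and passed without control library 3. Mxd3 passed for number 2 against 1 without shIRS2 library 1. Depth limits Mxd1, at 49 counts in its lowest library, and Mycl and Mycn, which could not be tested.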
